A study of Mus musculus with 10 samples.

Results

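The natriuretic peptide genes of the mouse ventricle are described here, with the genes of their receptors and of the protease that activates them. The 7 genes were taken by symbol from a deposited table of 40690 genes: the ligand genes Nppa, Nppb and Nppc, the receptor genes Npr1, Npr2 and Npr3, and the protease gene Corin. Polyadenylated RNA came from the ventricles of male C57BL/6 mice aged 10 weeks, with no transgene or deletion named in the labels. A sham operation for ischemia-reperfusion, the control surgery of coronary artery studies, preceded 5 of the 10 samples, and the other 5 came from naive, non-operated mice. How long after surgery the tissue was taken is not stated in the labels. The comparison asks how ventricular transcripts differ after the control surgery itself.

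Natriuretic peptides are hormones of the heart and vessels that promote salt and water excretion, relax vessels and restrain growth of muscle and scar tissue. Atrial and B-type natriuretic peptide are made mainly by heart muscle cells, and the atria hold far more of the former than the ventricles do. Both bind the guanylyl cyclase encoded by Npr1, which makes cyclic GMP, whereas C-type natriuretic peptide acts mostly near its source through the related cyclase encoded by Npr2. The third receptor, encoded by Npr3, lacks a cyclase domain and removes all of these peptides from the circulation. In the ventricle, transcripts of Nppa and Nppb are widely used as signs of stretch and overload.

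In sham ventricles the Nppa transcript rose while the transcripts of Corin and Npr3 fell. Of the 7 genes, 6 passed the filter on low counts, and of these 1 rose, 2 fell and 3 did not pass the test (edgeR quasi-likelihood test at a Benjamini-Hochberg adjusted p below 0.05, over 13622 genes). Over all tested genes 32.7% passed in either direction, 17.2% higher and 15.5% lower in sham, so 3 of 6 is a small count beside a common outcome. The median log2 fold change, sham against naive, was -0.30 over the 6 genes and -0.05 over all tested genes. Levels are given as CPM, read counts set relative to library size, scaled with TMM factors, which set the bulk of genes equal between libraries. With library size alone in place of these factors, the log2 fold changes of all tested genes moved upward by a median of 0.265. Under that scaling 34.9% of genes passed, 32.8% higher (4473 genes against 2342 with TMM factors) and 2.08% lower (283 against 2113). Nppa then still passed (1.14, edgeR adjusted p = 0.006037) and neither Corin nor Npr3 did.

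The libraries held 9683181 to 17577906 counts in the naive group and 10654107 to 21537135 in the sham group. Markers of heart muscle were abundant in every library, with a summed level of 59741 to 61900 CPM in naive and 44451 to 50326 in sham libraries. Alpha myosin heavy chain (Myh6) made up most of that sum, at a mean of 38652 CPM in naive and 30509 in sham hearts. Of these markers 7 of 8 were lower in sham with TMM factors but 1 of 8 with library size alone. The shares lower over all tested genes were 15.5% and 2.08% in that order. Of 6 atrial markers, 2 were at or near 0: Sln, an atrial regulator of the calcium pump, had 1 count in sham 4 and 0 in the other libraries, and Bmp10, an atrial growth factor, had 0 to 3. The other 4 were detected in both groups. The summed level of the list was higher in sham through the marker Dkk3, as given beside Nppa. Macrophage markers were higher in 8 of 8 cases and fibroblast markers in 7 of 8, with 0 lower in either list. Both counts were the same with library size alone. Over all tested genes 17.2% were higher with TMM factors and 32.8% with library size alone. With TMM factors 3 of 6 conduction system, 3 of 7 endothelial, 2 of 7 smooth muscle and pericyte and 3 of 5 mesothelial markers were lower and 0 higher, beside 15.5% lower over all tested genes. The lower counts with library size alone were 1, 0, 0 and 2 in that order, beside 2.08% lower over all tested genes. Then 2 of 7 endothelial and 3 of 7 smooth muscle and pericyte markers were higher, beside 32.8% higher over all tested genes. The direction of those 2 lists thus turned with the scaling, which moved all tested genes upward by a median of 0.265. The 1 tested fat cell marker did not pass. In bulk tissue, fewer cells of a type and less RNA per cell cannot be told apart. The parts of these shifts in the results below were not tested.

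Nppb and Nppa lie next to each other on the plus strand of chromosome 4 (GRCm38), Nppb at 147985788 to 147987205 and Nppa at 148000722 to 148002079, with 13516 bases between them. A gene on the minus strand, Gm13054, overlaps Nppa at 148001091 to 148004014 and covers 532 of the 865 exon bases of Nppa, or 61.5%. The libraries do not mark strand, so reads from these bases cannot be assigned to either gene with certainty. Gm13054 itself had 3 counts over the naive and 9 over the sham libraries. Counting tools may set aside reads that lie in 2 genes, and the labels do not state whether that was done, so the level of Nppa is uncertain. No other gene overlaps the exons of Nppb.

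**Figure D1:**
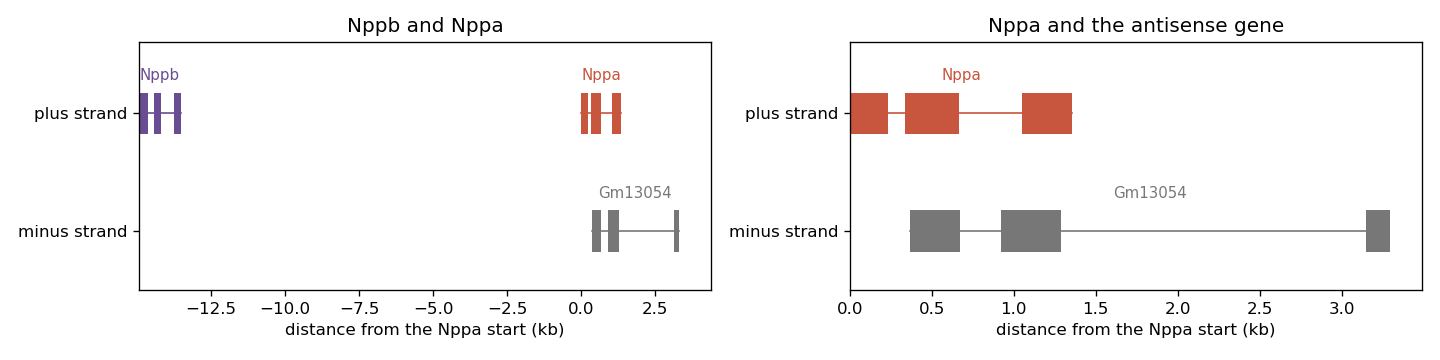
Gene models of the Nppb and Nppa locus in GENCODE M21, with boxes for exons, lines for introns and the x axis giving the distance from the Nppa start in kilobases. The right panel enlarges Nppa and the antisense gene Gm13054, whose exons cover 532 of the 865 exon bases of Nppa.

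The upstream sequences of these neighbours are shown because the ratio between their transcripts separated the groups without overlap. Each is the run of 250 bases before the start of the RefSeq gene (GRCm38.p6), read from 5′ to 3′, with motif matches in capitals. RefSeq promoters were found for 7 of 7 genes. The motifs searched on both strands were the GATA factor motifs TGATAA and AGATAA, the TEAD motif CATTCC known as M-CAT, the T-box site AGGTGTGA, the NKX2-5 motif TNAAGTG and the TATA box TATAAA. None of the matches printed overlaps another.
Nppa, chr4:148000472-148000721, plus strand: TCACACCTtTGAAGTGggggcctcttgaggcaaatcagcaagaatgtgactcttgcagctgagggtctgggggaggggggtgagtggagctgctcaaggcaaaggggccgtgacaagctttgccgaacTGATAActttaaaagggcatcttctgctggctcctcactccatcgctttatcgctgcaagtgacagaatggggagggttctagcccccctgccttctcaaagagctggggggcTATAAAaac
Nppb, chr4:147985650-147985899, plus strand: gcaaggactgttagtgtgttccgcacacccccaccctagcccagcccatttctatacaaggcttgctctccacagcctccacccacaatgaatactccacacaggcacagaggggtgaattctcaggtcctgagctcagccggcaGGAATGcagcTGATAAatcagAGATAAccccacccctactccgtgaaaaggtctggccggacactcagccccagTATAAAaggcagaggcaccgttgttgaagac

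The Nppa window holds, from left to right, the T-box site read on the minus strand, an NKX2-5 motif, the GATA motif TGATAA and a TATA box. The Nppb window holds an M-CAT motif read on the minus strand, both GATA motifs and a TATA box. Among 32851 RefSeq promoter windows of the same length, 7.94% hold TGATAA, 9.99% AGATAA, 12.6% CATTCC, 1.12% AGGTGTGA, 10.1% TNAAGTG and 12.4% TATAAA. These matches describe letters in the windows and are no evidence of binding in these hearts. The GENCODE model of Nppb begins 112 bases before the RefSeq start, so the last 112 bases of its window are transcribed in that model. In the Corin window none of the motifs was found.

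Nppa encodes the precursor of atrial natriuretic peptide. It stood at 53.7, 48.3, 38.1, 44.9 and 41.1 CPM in naive 1 to 5. In sham 1 to 5 it stood at 36.9, 77.5, 70.2, 131 and 96.1 CPM. Sham 1 lay below all naive libraries, and the other 4 sham libraries lay above all of them, so the groups overlapped through 1 library. The highest sham library held 3.54 times the lowest, against 1.41 times in the naive group. The means were 45.2 ± 6.10 CPM in naive hearts and 82.3 ± 34.5 after sham surgery (SD, n = 5). The log2 fold change was 0.87 ± 0.27 (SE, edgeR quasi-likelihood adjusted p = 0.03095). Without sham 1 the log2 fold change was 1.05 (edgeR adjusted p = 2.006e-04). The call was lost when naive 2, 3, 4 or 5 or sham 5 was left out, at adjusted p-values of 0.05645, 0.06978, 0.07259, 0.07937 and 0.0609. It was also lost when no filter on low counts was used (adjusted p = 0.1083).

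Myl7 encodes the regulatory myosin light chain of the atria, and its level bears on whether atrial tissue came with a sample. It was at 0.568 to 1.31 CPM in naive libraries and at 0.346, 0.208, 0.134, 3.30 and 0.734 CPM in sham 1 to 5. Sham 4, the library with the most Nppa, thus also had the most Myl7. In sham 2, 3 and 5 Nppa was above all naive libraries while Myl7 was no higher than the naive range. Myl4, another myosin light chain of the atria, was at 1.48 to 2.21 CPM in naive libraries and at 2.25, 2.78, 2.01, 4.02 and 2.08 CPM in sham 1 to 5. It was thus also highest in sham 4, and sham 1 and 2 lay above the naive range as well. Its log2 fold change of 0.53 did not pass (edgeR adjusted p = 0.098) but did with library size alone (0.79, adjusted p = 0.0132). Without sham 4 the log2 fold change of Nppa was 0.68 (edgeR adjusted p = 0.04637) and that of Myl7 was -1.30 (adjusted p = 0.0401). Of the 4 tested atrial markers 1 rose, Dkk3, a secreted protein of the Dickkopf family, from 3.14 ± 0.911 to 17.6 ± 4.35 CPM. Kcnj3, a potassium channel gene, was at 10.0 and 7.34 CPM (adjusted p = 0.05687). The list's summed level was 13.7 to 19.4 CPM in naive and 21.1 to 34.1 in sham libraries. Dkk3 carried that rise: the naive and sham means were 1.03 and 0.945 CPM for Myl7, 1.84 and 2.63 for Myl4, and lower in sham for Kcnj3. The part of the list in the level of Nppa was not tested. Total counts also went with Nppa in the sham group, where sham 4 and 5 were the deepest libraries and sham 1 the shallowest, and this was not tested either.

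Nppb encodes the precursor of B-type natriuretic peptide. Its levels were 116, 132, 134, 167 and 162 CPM in naive 1 to 5. They were 60.8, 114, 99.7, 150 and 117 CPM in sham 1 to 5. Sham 1 was again the lowest library of all, sham 4 and 5 lay within the naive range, and sham 2 and 3 lay below it. The means were 142 ± 21.5 CPM in naive hearts and 108 ± 32.2 after sham surgery (SD, n = 5). The log2 fold change of -0.39 ± 0.19 did not pass (SE, edgeR adjusted p = 0.1297), and no library left out in turn brought it past the threshold. The fitted changes of the neighbours thus had opposite signs.

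**Figure D2:**
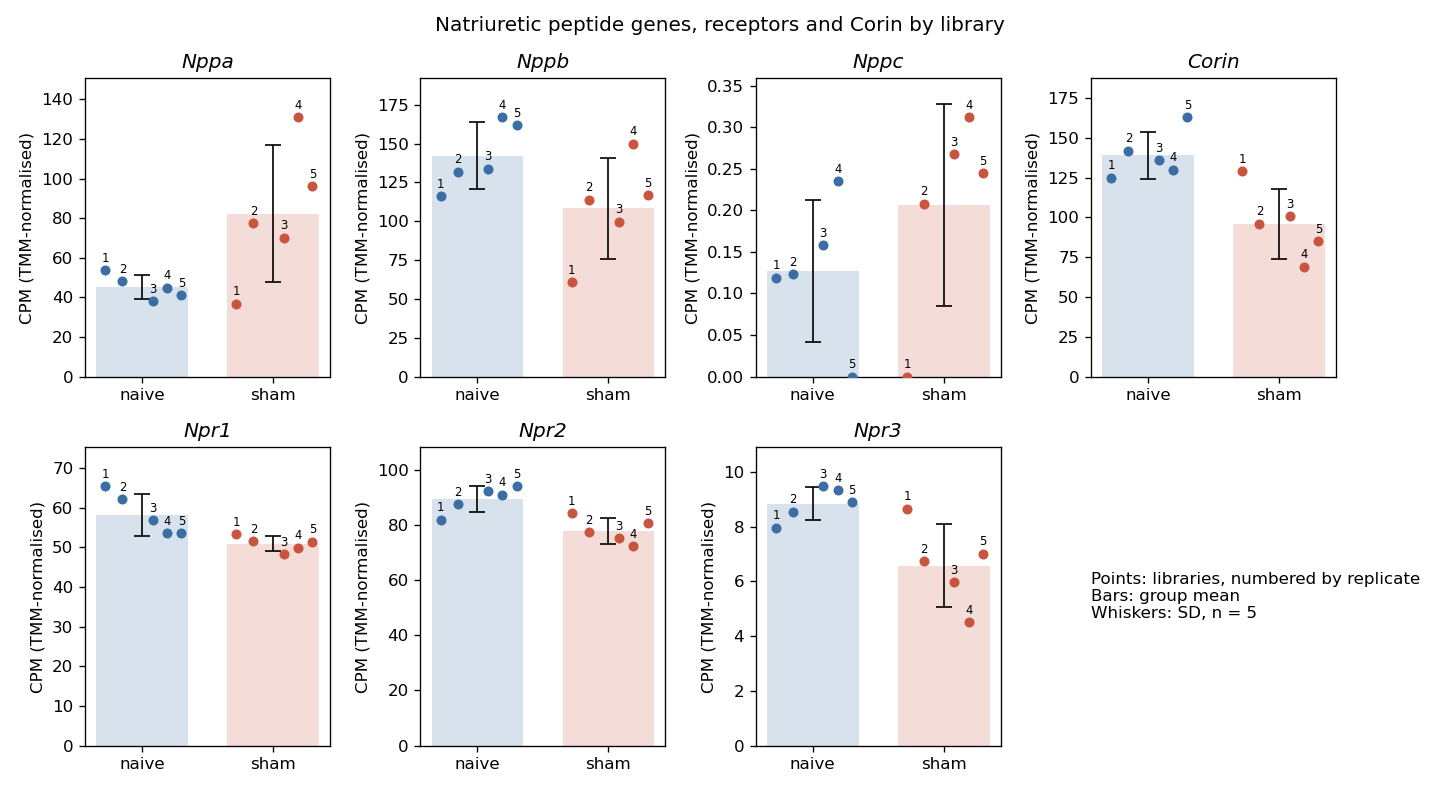
TMM-normalised CPM of the 7 genes in each library, with points numbered by replicate, bars for the group mean and whiskers for the SD (n = 5 per group). Nppa spans 36.9 to 131 CPM in sham against 38.1 to 53.7 in naive libraries, and all 5 sham libraries lie below all 5 naive libraries for Npr1.

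Within each library the ratio of Nppa to Nppb does not depend on how that library was scaled. The ratio was 0.464, 0.367, 0.284, 0.270 and 0.254 in naive 1 to 5. It was 0.608, 0.683, 0.705, 0.872 and 0.824 in sham 1 to 5. The groups did not overlap: every sham library, sham 1 included, exceeded every naive one, although neither gene alone separated the groups. The mean log2 ratio was -1.65 ± 0.36 in naive and -0.45 ± 0.21 after sham surgery (SD, n = 5), a difference of 1.20 or 2.291-fold. The exact two-sided permutation p was 0.007937, the smallest that 5 against 5 libraries can give, and 0.02381 after Benjamini-Hochberg adjustment over 3 ratios. With the counts of Gm13054 added to Nppa the difference was again 1.20. Those counts, 3 over the naive and 9 over the sham libraries, were too few to move it. Reads set aside in the overlap would be in neither count, so this sum does not check them.

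**Figure D3:**
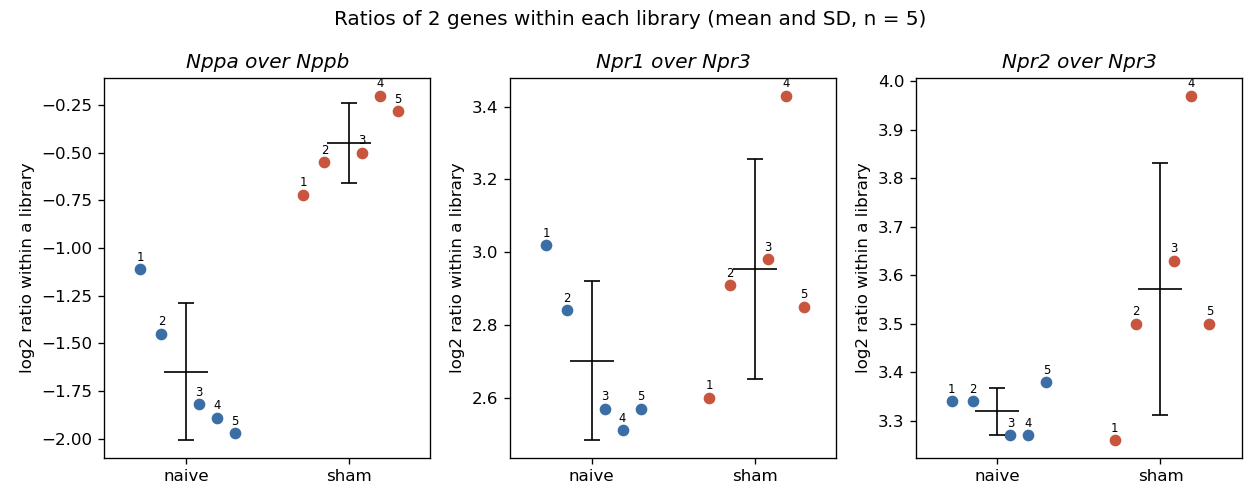
Log2 ratios of CPM within each library for Nppa over Nppb, Npr1 over Npr3 and Npr2 over Npr3, with points numbered by replicate and the mean and SD of each group (n = 5). For Nppa over Nppb all sham libraries lie above all naive libraries, and for both receptor ratios the groups overlap.

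In the sham group the 2 neighbours kept the same order of libraries: sham 1 was lowest for both, followed by sham 3, 2, 5 and 4. The naive group showed no such order, since naive 1 had the most Nppa and the least Nppb. Relative to the summed heart muscle markers, a measure added after the data were seen, Nppa differed by 1.11 on the log2 scale (exact permutation p = 0.02381, 0.07143 adjusted over 3 genes). Nppb differed by -0.08 on the same measure (exact permutation p = 0.8254, adjusted p = 0.8254). The difference of 1.11 for Nppa joins its own change, 0.87 in the fit with TMM factors, with the lower level of the muscle markers in sham. It did not pass after adjustment.

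Nppc encodes the precursor of C-type natriuretic peptide, which in the heart comes mainly from endothelial cells and fibroblasts. It lies on the minus strand of chromosome 1 at 86666291 to 86670571. The gene had 1, 2, 2, 3 and 0 counts in naive 1 to 5 and 0, 3, 4, 7 and 6 counts in sham 1 to 5. A level of 3 counts corresponds to between 0.122 and 0.357 CPM across the libraries. Nppc was too low to be tested, and no difference was detectable at this depth.

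Corin encodes the membrane protease of heart muscle cells that cuts the precursor of atrial natriuretic peptide into its active form. It lies on the minus strand of chromosome 5 at 72300025 to 72504473, and an antisense gene, Gm20647, overlaps 2.72% of its exon bases. Corin stood at 125, 142, 136, 130 and 163 CPM in naive 1 to 5. It stood at 129, 96.1, 101, 69.0 and 85.2 CPM in sham 1 to 5. The groups overlapped through sham 1, the 1 sham library within the naive range. The means were 139 ± 14.8 and 96.0 ± 22.0 CPM (SD, n = 5), 1.455-fold lower in sham. The log2 fold change was -0.54 ± 0.13 (SE, edgeR adjusted p = 0.00571). The call held with each library left out in turn (log2 fold changes of -0.67 to -0.41).

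The order of the sham libraries by Corin was the exact reverse of their order by Nppa, from 129 CPM in sham 1 to 69.0 in sham 4. In naive libraries the one with the most Nppa, naive 1, had the least Corin. The level of Corin depended on how libraries were scaled. Under library size alone its log2 fold change was -0.28 and did not pass (edgeR adjusted p = 0.1597). With TMM factors 7 of 8 heart muscle markers fell as well, with a median log2 fold change of -0.36 over the list, and with library size alone 1 of 8 did. Relative to their summed level Corin differed by -0.20 on the log2 scale (exact permutation p = 0.246, 0.369 adjusted over 3 genes). A change of Corin apart from that of heart muscle transcripts was therefore not shown.

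**Figure D4:**
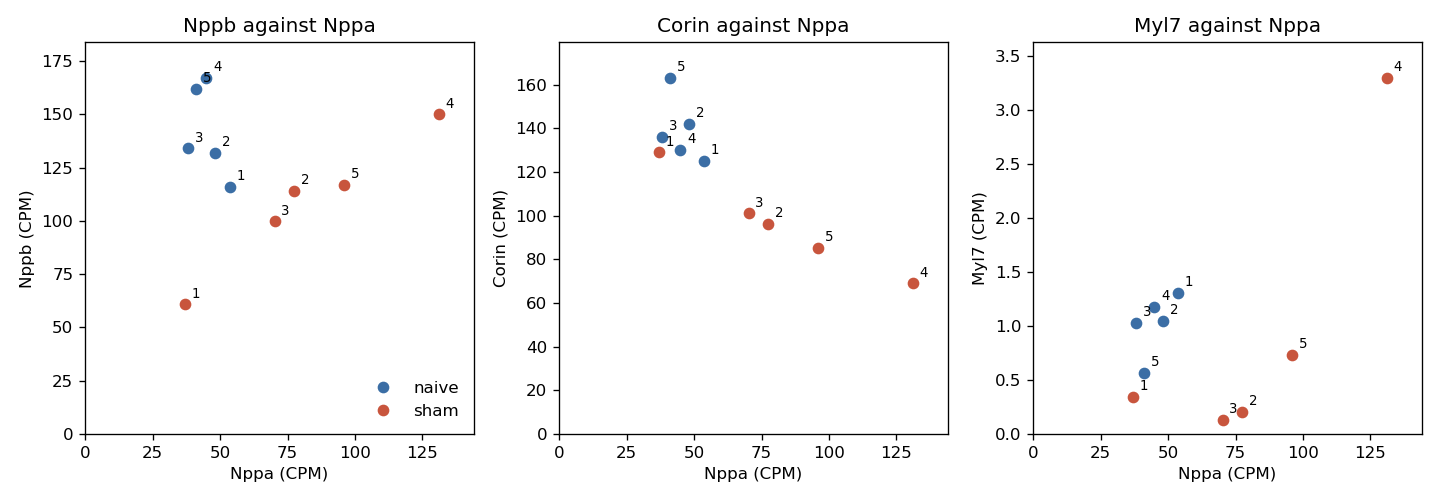
Nppb, Corin and the atrial marker Myl7 against Nppa, all in CPM, with 1 point per library coloured by group and numbered by replicate. In the 5 sham libraries Nppb is higher and Corin lower where Nppa is higher, and for Myl7 sham 4 stands apart at 3.30 CPM.

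Npr1 encodes guanylyl cyclase A, the receptor of atrial and B-type natriuretic peptide. It lies on the minus strand of chromosome 3 at 90450591 to 90465866, where the antisense gene Gm16048 overlaps 11.7% of its exon bases. Its levels were 65.4, 62.1, 56.8, 53.6 and 53.5 CPM in naive 1 to 5 and 53.3, 51.6, 48.2, 49.9 and 51.4 CPM in sham 1 to 5. All sham libraries lay below all naive libraries, by a margin of 53.3 against 53.5 CPM. The same held for 9.18% of all tested genes. The log2 fold change of -0.20 ± 0.08 did not pass (SE, n = 5 per group, edgeR adjusted p = 0.07421).

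Npr2 encodes guanylyl cyclase B, the receptor of C-type natriuretic peptide. It lies on the plus strand of chromosome 4 at 43631935 to 43651244, far from the ligand genes of that chromosome. Its levels were 82.0 to 94.1 CPM in naive libraries, with a median of 91.0, and 72.3 to 84.4 CPM in sham libraries, with a median of 77.4. The groups overlapped, since sham 1 at 84.4 CPM lay above naive 1 at 82.0. The log2 fold change of -0.20 ± 0.08 did not pass with edgeR (SE, n = 5 per group, adjusted p = 0.05364) and passed with DESeq2 (adjusted p = 0.04228). The antisense gene Gm12473 shares 5.70% of the exon bases of Npr2 and had 288 to 563 counts in naive and 365 to 610 in sham libraries. For both cyclase receptors the sign turned with library size alone, to a log2 fold change of 0.07 each.

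Npr3 encodes the clearance receptor, which in the mouse heart is found in the endocardium among other cells. It lies on the minus strand of chromosome 15 at 11839896 to 11907287. Its levels were 7.97, 8.55, 9.48, 9.33 and 8.90 CPM in naive 1 to 5 and 8.66, 6.73, 5.97, 4.51 and 7.01 CPM in sham 1 to 5, on 67 to 172 counts per library. Sham 1 lay within the naive range and the other 4 sham libraries lay below it. The log2 fold change was -0.44 ± 0.15 (SE, n = 5 per group, edgeR adjusted p = 0.03785), 1.359-fold lower in sham. The call was lost in 8 of 10 fits that left out a library, and held without naive 1 (adjusted p = 0.03246) or sham 1 (adjusted p = 0.00988). Without sham 4, the library with the least Npr3, the log2 fold change was -0.30 (adjusted p = 0.1023).

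Of 6 endocardial markers 2 rose and 0 fell with TMM factors, beside 17.2% higher and 15.5% lower over all tested genes. With library size alone 3 rose, beside 32.8% higher over all tested genes. Those that rose with TMM factors were Plvap, a protein of endothelial fenestrae, from 23.1 ± 5.61 to 111 ± 15.1 CPM, and Vwf, the clotting protein of endothelial cells, from 112 ± 11.5 to 142 ± 15.4 CPM. Nfatc1, a transcription factor of the endocardium, was at 59.9 ± 4.74 and 60.9 ± 7.02 CPM. The summed level of that list was 201 to 241 CPM in naive and 295 to 362 in sham libraries, higher in sham where Npr3 was lower. Plvap and Vwf carried that rise, and the rest of the list did not pass with TMM factors. The part of the list in the result was not tested. The ratios of both cyclase receptors to the clearance receptor were compared within libraries. The ratio of Npr1 to Npr3 was 5.68 to 8.09 in naive and 6.07 to 10.8 in sham libraries, a log2 difference of 0.26 (exact two-sided permutation p = 0.1508, adjusted p = 0.1508 over 3 ratios). The ratio of Npr2 to Npr3 was 9.62 to 10.4 in naive and 9.61 to 15.6 in sham libraries, a log2 difference of 0.25 (exact permutation p = 0.04762, adjusted p = 0.07143). This last difference passed in 1 of 10 tests that left out a library, the one without sham 1 (0.33, exact permutation adjusted p = 0.0119). Without sham 4 it was 0.15 (exact permutation adjusted p = 0.1071).

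**Figure D5:**
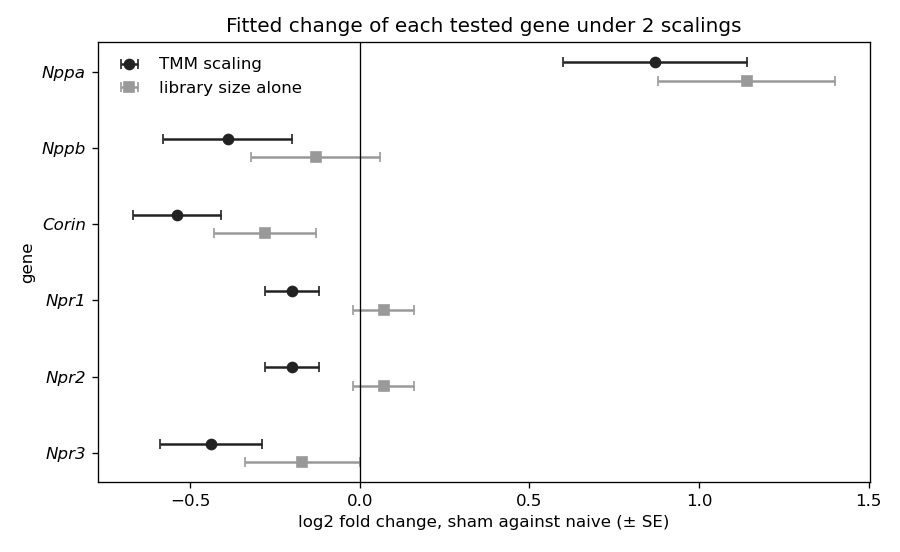
Log2 fold change, sham against naive, with its SE for each of the 6 tested genes under TMM scaling (black circles) and library size alone (grey squares). Nppa lies above 0 under both scalings, whereas Npr1 and Npr2 lie below 0 with TMM factors and above 0 with library size alone.

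Levels of different genes were compared per kilobase of exon sequence (CPM per kb, n = 5 per group). In naive libraries the order was Nppb at 182 ± 27.6 (SD), Nppa at 52.3 ± 7.05, Corin at 25.8 ± 2.75, Npr2 at 19.2 ± 1.03, Npr1 at 12.2 ± 1.11, Npr3 at 0.942 ± 0.0650 and Nppc at 0.122 ± 0.0815 CPM per kb. No neighbours in that order had overlapping ranges. In sham libraries the order of means was the same, but Nppb at 138 ± 41.3 and Nppa at 95.1 ± 39.9 CPM per kb overlapped in range, as did Corin at 17.8 ± 4.08 and Npr2 at 16.7 ± 1.01. The place of Nppa depends on its antisense overlap. If only the 333 exon bases that no other gene covers are used as its length, Nppa stood at 136 ± 18.3 CPM per kb in naive and 247 ± 104 in sham libraries. It then lay above Nppb in 1 of 5 naive and 5 of 5 sham libraries, where it lay above in 0 of 5 and 0 of 5 with the whole length.

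The transcripts most like each tested gene were taken by Pearson's r of log2 CPM over the 10 libraries, as a description with no test. The leading r is the highest among all tested genes, and the groups themselves differ, so r after centring each group is given beside it. For Nppa it was Spcs2, a subunit of the signal peptidase that trims secreted proteins (r = 0.9633, centred r = 0.9413). For Nppb it was Cxx1a (0.9398 and 0.9137). Corin was most like Ubr3, a ubiquitin ligase (0.9817 and 0.959), followed by Pdk1, a kinase that restrains pyruvate dehydrogenase (0.9783 and 0.9547). Npr1 was most like Mettl23 (0.979 and 0.9595) and Npr2 most like Cep68 (0.9808 and 0.9465). Npr3 was most like Smurf2, a ubiquitin ligase (0.9643 and 0.9268), followed by Stard8 (0.9637 and 0.9313) and Ppara, the fatty acid sensing receptor (0.9635 and 0.9277). None of the 7 genes was among the 3 closest to another.

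Among other genes that release or break down the peptides most did not pass the test. Of 6 tested, 1 fell, 5 did not pass and 0 rose (median log2 fold change -0.48), against 32.7% of all tested genes. The lower gene was Pcsk6, a convertase that activates corin, from 140 ± 16.1 to 98.1 ± 6.98 CPM (log2 fold change -0.51 ± 0.09, edgeR adjusted p = 5.071e-04). With library size alone it did not pass (-0.24, adjusted p = 0.05921). Furin, which cuts the precursor of B-type natriuretic peptide, was at 429 CPM without and 398 after sham surgery (-0.11 ± 0.10, adjusted p = 0.4536). Neprilysin (Mme), which degrades the peptides, was at 1.59 and 0.929 CPM (adjusted p = 0.09399), and insulin-degrading enzyme (Ide) at 82.4 and 58.7 CPM (adjusted p = 0.05993). Ide passed with DESeq2 (adjusted p = 0.03628) and without naive 1 (-0.63, edgeR adjusted p = 0.002504), and Mme without naive 2 (-0.96, adjusted p = 0.03656). Osteocrin (Ostn), a ligand of the clearance receptor, was too low to be tested.

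Of 5 tested genes for cyclases and cyclic GMP kinases 2 rose and 0 fell (median 0.41), a small count beside the 17.2% higher and 15.5% lower over all tested genes. Gucy1a1, a subunit of the cyclase that senses nitric oxide, rose from 12.8 ± 0.844 to 18.4 ± 2.56 CPM (0.51 ± 0.11, edgeR adjusted p = 0.002504), with all sham libraries above all naive ones. That separation was seen in 13.6% of all tested genes. Guca1a, a calcium-dependent activator of retinal guanylyl cyclases, rose from 0.546 to 1.76 CPM on 3 to 61 counts per library. The kinase gene Prkg1 was at 4.63 and 4.59 CPM (adjusted p = 0.9321).

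Of 9 phosphodiesterase genes that can hydrolyse cyclic GMP or are regulated by it, 3 rose, 2 fell and 4 did not pass (median 0.13), where 17.2% of all tested genes were higher and 15.5% lower. Pde5a, which is specific for cyclic GMP, was at 2.74, 1.85, 2.45, 2.98 and 2.46 CPM in naive 1 to 5 and at 3.20, 4.37, 5.17, 4.28 and 5.01 CPM in sham 1 to 5. The lowest sham library exceeded the highest naive one (0.84 ± 0.19, edgeR adjusted p = 0.00255). The calmodulin-dependent Pde1b rose by 0.90 ± 0.17 and Pde1a, named after its values were seen, by 0.85 ± 0.28, but the Pde1a call was lost when naive 2 or 3 or sham 4 or 5 was left out (edgeR adjusted p of 0.05108 to 0.07354). The heart muscle forms moved the other way: Pde1c fell from 29.3 ± 7.78 to 18.3 ± 1.77 CPM and Pde3a from 75.1 ± 9.76 to 51.8 ± 10.7 CPM. With library size alone both lower calls were lost (edgeR adjusted p of 0.0542 for Pde1c and 0.2069 for Pde3a). Under that scaling 4 of the 9 were higher, beside 32.8% higher over all tested genes.

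Of 10 tested targets of cyclic GMP or its kinase 1 rose and 4 fell (median -0.25), beside the same shares of 17.2% and 15.5%. Phospholamban (Pln), the inhibitor of the calcium pump, fell from 662 ± 182 to 438 ± 34.6 CPM (-0.60 ± 0.15, edgeR adjusted p = 0.006808). The small heat shock protein gene Hspb6 fell by 0.53 ± 0.10 on the log2 scale and Cnga3, a cyclic nucleotide gated channel gene, fell by 0.82 ± 0.19. Vasp, an actin regulator named after its values were seen, rose by 0.39 ± 0.12 (adjusted p = 0.02026). Its call was lost when naive 4 was left out (adjusted p = 0.05104), and likewise for naive 5 (0.05023) and sham 3 (0.05663). With library size alone Pln and Hspb6 did not pass (adjusted p of 0.1287 and 0.05214).

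Of 16 tested genes for transcription factors and other regulators known to act on Nppa and Nppb, 1 rose, 10 fell and 5 did not pass (median -0.35). Over all tested genes 17.2% were higher and 15.5% lower, and the median was -0.05. Of the heart muscle markers 7 of 8 were lower, with a median of -0.36. Whether these regulators changed apart from heart muscle transcripts was not tested. Gata4, a GATA factor of heart muscle, fell from 301 ± 31.5 to 220 ± 14.0 CPM (-0.45 ± 0.09, edgeR adjusted p = 0.001064). Myocardin (Myocd), a coactivator of serum response factor, fell by 0.70 ± 0.12 on the log2 scale and Hand2 fell by 0.52 ± 0.10. Tead1, a factor that binds M-CAT motifs, fell by 0.54 ± 0.12 and Nkx2-5 fell by 0.47 ± 0.13. The last 2 were picked once their values were known. The 1 that rose was Nfatc4, a transcription factor controlled by calcineurin, from 18.5 ± 2.61 to 33.7 ± 2.68 CPM (0.87 ± 0.10, adjusted p = 1.04e-05). With library size alone 2 genes were lower and 2 higher, beside 2.08% lower and 32.8% higher over all tested genes. Gata4, Tead1 and Nkx2-5 then did not pass (edgeR adjusted p of 0.1612, 0.1346 and 0.2156).

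Among 11 genes of the cardiac stress programme, a list that includes Nppa and Nppb, 3 rose, 2 fell and 6 did not pass (median -0.11), against 32.7% of all tested genes that passed in either direction. Beta myosin heavy chain (Myh7) was at 409, 486, 400, 461 and 505 CPM in naive 1 to 5 and at 612, 670, 575, 586 and 462 CPM in sham 1 to 5 (0.36 ± 0.10, edgeR adjusted p = 0.01413). Sham 1, where Nppa was lowest, thus had the second highest Myh7. The stretch-responsive gene Ankrd1 was highest in sham 4, at 1108 CPM against 409 to 770 in the other 9 libraries, and did not pass (adjusted p = 0.1312), though it did with library size alone (0.72, adjusted p = 0.02018). Mybpc2, a myosin binding protein gene, rose by 0.46 ± 0.10. Alpha myosin heavy chain (Myh6) fell by 0.34 ± 0.08 and cardiac actin (Actc1) fell by 0.41 ± 0.09 on the log2 scale, and neither passed with library size alone (adjusted p of 0.5592 and 0.2526).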

How the data were processed

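The authors deposited one table of whole-number HTSeq counts per Ensembl gene, not normalized, on GRCm38 per the submitters' processing notes. The libraries were single-end and do not mark strand, per the labels' protocols. Those notes also name Bowtie2, TopHat2 2.1.1, TopHat, DESeq and edgeR, with no role for any. Which annotation release, counting mode and strand setting were used is not stated. Of 41264 rows, 574 repeated an identifier with identical counts and were collapsed. No row lacked a gene.

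The 7 genes and all lists were chosen with earlier results of these data known. Genes were kept by filterByExpr (minimum count 10, minimum total 15) in edgeR 4.0.16, scaled with TMM factors and tested with the robust quasi-likelihood F test on the group alone, in R 4.3.3. Each SE was derived from the fold change and its F statistic. Ratios used log2 CPM with a prior count of 2 and exact two-sided permutation tests. Alternatives were DESeq2 1.42.0, RLE factors, library size alone, no filter, 1 CPM in 5 libraries, no robust estimation, the replicate number as a block, each library left out, a prior count of 0.5 and Nppa summed with Gm13054. Leaving out naive 1 and sham 4 together, the muscle marker ratios and the length of Nppa without overlap were added after seeing the data. Lengths and coordinates are from GENCODE M21 (GRCm38). Of 129 list memberships 129 were found, 2 of them by gene identifier under an older symbol. Text names all 7 genes, genes overlapping them, up to 4 genes of smallest p per pathway list, up to 3 most abundant markers per list and the transcripts most like each gene. Furin and Myl7 were added once their values were known, and 1 gene that the rule names is not reported here. The edgeR test was checked on simulated counts. The labels do not state that each library came from a separate animal, so p-values measure only the spread between these samples, which may be technical.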

Additional observations from a re-analysis of the deposited data

Results flagged for a closer look

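In 3 of 32 group values examined, 1 library stood far from the others of its group, where chance alone flags about 1 in 20. All 3 concern atrial muscle markers and none concerns the 7 genes or their ratios. Myl7 was at 3.30 CPM in sham 4, against 0.134 to 0.734 CPM in the other sham libraries. Sln had 1 count, or 0.0446 CPM, in sham 4 and 0 in the others, which is at the limit of counting. Kcnj3, an atrial potassium channel gene, was at 6.15 CPM in sham 1, below the 7.45 to 7.77 CPM of the other sham libraries. Sham 4 was also the library with the most Nppa and Nppb of its group and the least Corin and Npr3. It had counts for the most genes of all libraries, 24214 against 22570 in sham 5, which had a similar total (21537135 and 21426819 counts). The part of this in the results was not tested.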

How the results depend on the processing

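Both lower calls were lost with library size alone, and the higher call when any of 5 single libraries was left out. The lower call of Npr3 held in 2 of 10 fits that left out a library, and that of Corin in 10 of 10. Npr3 also did not pass without a filter (edgeR adjusted p = 0.06571). Of all tested genes, 2342 were higher and 2113 lower, and with library size alone 4473 and 283. Leaving out 1 library gave 2132 to 2461 higher and 1465 to 2249 lower genes. Of the 7 genes, 1 was higher and 2 lower. Higher were 0 without a filter, with the replicate block and without naive 1 and sham 4 together (added after seeing the data), and 0 to 1 with a library left out. Lower were 0 with library size alone, 1 without a filter, 1 without naive 1 and sham 4 together, 4 with the replicate block, and 1 to 3 with a library left out. Same-numbered libraries did not all deviate together (r of 0.008011 to 0.2934 over genes), so the numbers were not used as pairs. Of the 5 naive libraries, 3 correlated best with the sham library of their own number. With the replicate block Nppa was at 0.79 (edgeR adjusted p = 0.1405), Nppb at -0.43 (adjusted p = 0.002854) and Npr2 at -0.20 (adjusted p = 0.04358).

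The log2 ratio of Nppa to Nppb was 1.11 to 1.33 with a library left out, with exact permutation adjusted p-values of 0.0119 to 0.04762. It was 1.20 with signs flipped over 5 replicate block pairs (exact adjusted p = 0.1875), a design too small to pass. Without naive 1 and sham 4 it was 1.27 and did not pass (exact permutation adjusted p = 0.08571). There all sham libraries still exceeded all naive ones, so the unadjusted p was the smallest that so few libraries can give. Ratios of Npr1 and Npr2 to Npr3 were 0.14 to 0.34 and 0.15 to 0.33 with a library left out. With library size alone the sign turned for Npr1 and Npr2 (0.07 each), Cdh5 (0.05), Gucy1a2 (0.19), Pam (0.10), Rgs5 (0.05) and Tie1 (0.05). Gucy1a2 (-0.17 to 0.05 with a library left out) also turned without naive 2 (0.05), sham 4 (0.03), sham 5 (0.01) or naive 1 and sham 4 (0.05), Fabp4 (-0.06 to 0.16) without sham 4 (-0.06) or naive 1 and sham 4 (-0.11), and Nfatc1 (-0.02 to 0.12) without naive 4 (-0.01), naive 5 (-0.00) or sham 1 (-0.02). Furin turned with library size alone (0.16) and without naive 1 and sham 4 (0.04). Myl7, at 0.05 (-1.30 to 0.29 with a library left out), turned with DESeq2 (-0.10), the replicate block (-0.42), without naive 5 (-0.12), without sham 4 (-1.30) and without naive 1 and sham 4 (-1.21). The causes were not tested. Depth limits Nppc most, at 0 to 7 counts per library.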
